A study of Mus musculus with 6 samples.

Results

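The 40 genes described here encode the kinases, cyclins, spindle proteins and checkpoint proteins of mitosis. They were taken by gene symbol, and each matched 1 row of the 34745 genes in the deposited table. All 40 passed the filter on low counts, so no member was left out. Expression was measured by RNA sequencing. The cells were spermatogonial stem cells of the mouse grown in culture, the self-renewing germ cells behind sperm production. Their labels give postnatal day 6 and the strain DBA/2J X c57BL/6J, and they were used at passages 15 to 20. One group of 3 libraries was untreated, and the other group of 3 libraries came from cells that received bisphenol A (BPA), a plastics monomer studied as an endocrine disruptor, at 100 µM for about 4 days. No vehicle is named for the untreated cells. Nothing states that replicates were separate cultures, so p-values measure the spread between these libraries, which may be technical.

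Mitosis is driven by cyclin-dependent kinase 1 (CDK1) bound to A-type and B-type cyclins, with the Polo and Aurora kinases building the spindle. The spindle checkpoint holds the anaphase promoting complex inactive until each kinetochore is attached, after which securin and the B-type cyclins are degraded and the chromosomes separate. Many of these genes are transcribed mainly in G2 and M phase, under the MuvB, B-MYB and FOXM1 factors, so their mRNA in a culture is widely used as a measure of dividing cells. In these bulk samples fewer dividing cells and less mRNA per dividing cell cannot be told apart.

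The depth was 13453280 to 22286517 counts per library. Of 17 genes known from spermatogonia all were tested. Their levels summed to 1867 to 1970 CPM (counts scaled to a common library size) in untreated and 1691 to 2105 CPM in BPA libraries. Sall4 and Tex14 rose (11.8%, against 4.37% of all tested genes), and Id4, Nanos3 and Dnd1 fell (17.6%, against 6.28%). Nanos3 fell most, from 272, 247 and 237 CPM to 31.9, 48.9 and 39.7 CPM (log2 fold change -2.65, edgeR adjusted p = 8.5e-06). The sum therefore does not describe each gene. Of the Sertoli cell markers 6 of 12 had enough counts to be tested. Of these, 2 rose (33.3%, against 4.37% of all tested genes), Sox9 (log2 fold change 1.5, edgeR adjusted p = 0.0104) and Clu (1.34, edgeR adjusted p = 0.00199). The summed Sertoli markers were at 48.3 to 60.8 CPM in untreated and 120 to 156 CPM in BPA libraries. Clu alone made up most of this sum in every library, so it does not describe the list as a whole. The other tested Sertoli markers did not pass, with Wt1 (0.91) and Gata4 (1.88) above 0 and Dhh (-0.82) and Kitl (-1.23) below it. Rhox5 and Fshr had 0 counts in every library. Of 15 fibroblast markers 13 were tested, with 0 changes at the threshold (against 10.6% of all tested genes in either direction) and a median of -0.05. All 15 summed to 411 to 486 CPM in untreated and 318 to 630 CPM in BPA libraries. Fn1 was the most abundant of them in every library. The collagens Col1a1 (-0.57), Col1a2 (-0.76), Col3a1 (-1.89) and Col6a1 (-1.09) were below 0. Col5a1 (0.21) and Fn1 (0.39) were above it. Of 7 macrophage and blood markers 2 were tested with 0 changes in edgeR. Their list summed to 56.5 to 61.3 CPM in untreated and 29.8 to 43.4 CPM in BPA libraries. Cd68 alone made up most of this sum in every library. It was at 53.4, 49.0 and 50.2 CPM in untreated and 31.4, 43.0 and 26.3 CPM in BPA libraries (-0.60, edgeR adjusted p = 0.140). Leydig and peritubular markers summed to 10.5 to 11.8 CPM and 10.8 to 18.8 CPM, with 3 of 9 tested and 0 changes. Des made up most of that sum in every library. The part of other cell types in the differences described here was not tested.

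Promoters are shown first because mitotic genes are known to share the cell cycle genes homology region (CHR, TTTGAA) and CCAAT boxes, sites bound by MuvB and NF-Y. The windows run from 150 bases before to 30 bases after the RefSeq start in GRCm38.p6, 5′ to 3′ on the gene's strand, with TTTGAA and CCAAT on either strand in capitals. They belong to the 4 members with the smallest adjusted p that had an entry, Cenpa (chr5:30666736-30666915, plus strand), Aurka (chr2:172370541-172370720, minus strand), Bub1b (chr2:118598061-118598240, plus strand) and Ccnb2 (chr9:70421525-70421704, minus strand), and for contrast to Top2a (chr11:99024160-99024339, minus strand), a member chosen after its values were seen because it did not pass the test.
Cenpa: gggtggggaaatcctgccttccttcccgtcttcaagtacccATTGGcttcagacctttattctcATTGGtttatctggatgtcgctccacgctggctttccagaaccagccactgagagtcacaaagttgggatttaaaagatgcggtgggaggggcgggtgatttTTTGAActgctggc
Aurka: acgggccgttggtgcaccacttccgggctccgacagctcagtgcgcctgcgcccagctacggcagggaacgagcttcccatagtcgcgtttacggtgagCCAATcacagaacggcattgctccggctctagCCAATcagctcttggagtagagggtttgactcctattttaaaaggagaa
Bub1b: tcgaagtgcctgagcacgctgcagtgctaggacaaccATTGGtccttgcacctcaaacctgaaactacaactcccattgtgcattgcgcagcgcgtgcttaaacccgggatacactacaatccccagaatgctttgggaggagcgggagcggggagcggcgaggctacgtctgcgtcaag
Ccnb2: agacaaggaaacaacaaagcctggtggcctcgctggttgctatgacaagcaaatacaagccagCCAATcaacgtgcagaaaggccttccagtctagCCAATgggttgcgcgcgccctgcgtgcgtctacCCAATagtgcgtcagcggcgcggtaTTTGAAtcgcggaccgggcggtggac
Top2a: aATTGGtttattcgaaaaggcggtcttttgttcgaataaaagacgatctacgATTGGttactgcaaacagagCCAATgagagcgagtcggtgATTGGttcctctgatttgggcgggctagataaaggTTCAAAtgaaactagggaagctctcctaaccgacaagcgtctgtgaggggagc

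In Cenpa a CHR began at position 17 and in Ccnb2 at position 5 past the start, while Top2a has one on the reverse strand at position -23. The CHRs of Aurka and Bub1b, at positions 33 and 41 past the start, lie beyond the printed stretch. RefSeq entries were found for 33 of the 40 members, and the searches below cover the full windows of 250 bases before and 50 bases after the start. A CHR was present for 23 of these 33 genes, against 20.2% of the 27025 genes with an entry. A CCAAT box was present for 24 of 33 members and 41.1% of all genes, and both motifs for 20 of 33 members and 7.97% of all genes. On either strand the 2 motifs can share at most 1 base. Of the 14 members with an entry that fell under BPA, 11 held a CHR and 12 a CCAAT box, and of the 19 that did not pass the test 12 held a CHR and 12 a CCAAT box. Both motifs were thus found among members that fell and among members that did not pass, and a match describes the letters of a window only.

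Many mitotic mRNAs fell under BPA, among them those of the kinases Aurora A, Aurora B and Polo-like kinase 1, the A-type and B-type cyclins and the centromere histone. Of the 40 members 18 fell and 0 rose in edgeR's quasi-likelihood test at an adjusted p of 0.05, where 6.28% of 13287 tested genes fell and 4.37% rose. The members were chosen with earlier results of these data known, so this contrast describes the list and is no test of it. Scaling by library size also gave 18 lower (5.92% of tested genes) and 0 higher, with Cdc20 in place of Cdk1, and over all tested genes it gave 786 lower and 831 higher against 835 and 580. The median log2 fold change of the members, BPA over untreated, was -0.71, and that of all tested genes was 0.10. Summed over the members the level was 4714, 4807 and 4818 CPM in untreated replicates 1 to 3 and 2797, 2899 and 2803 CPM in BPA replicates 1 to 3, so the groups lay well apart. All BPA libraries were below all untreated libraries for 23 members, and above them for 0, where 15.7% and 15.6% of the tested genes showed such a separation. A fall of at least 2-fold was called for 10 members (2.84% of tested genes). At a threshold of 0.01 in place of 0.05, 10 members were lower (2.42% of tested genes), and DESeq2 called 22 (9.24%). The number lower was 10 without untreated replicate 1 (2.06% of tested genes) or untreated replicate 2 (2.31%), 11 without untreated replicate 3 (3.44%) or BPA replicate 1 (2.51%), 12 without BPA replicate 3 (3.08%) and 20 without BPA replicate 2 (11.7%). The calls of 10 members held through all 6 of these omissions (1.90% of tested genes), with edgeR adjusted p from 0.00117 to 0.0486 at their weakest, and those of the other 8 did not. All 18 stayed called without BPA replicate 2, whose values differ most from those of the other BPA libraries.

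**Figure D1:**
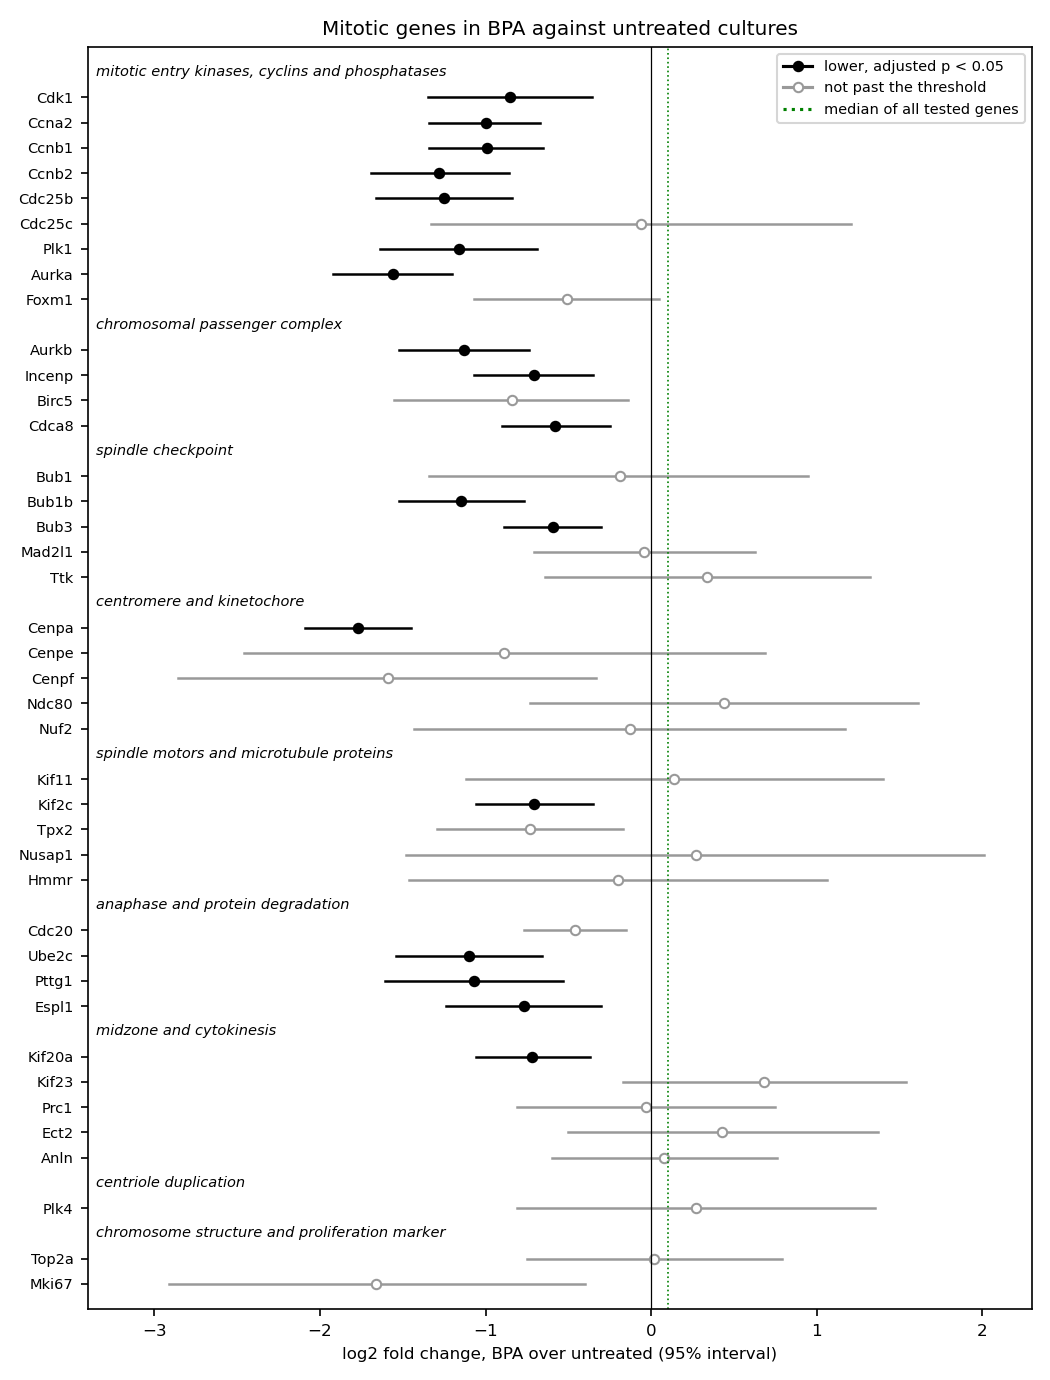
Log2 fold change of each of the 40 members, BPA over untreated, with its 95% interval, grouped by role. Filled points are the 18 members past the threshold, open points the 22 others, and the dotted line is the median of all tested genes, 0.10.

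Among the kinases, cyclins and other regulators that start mitosis 7 of 9 members fell, and the median was -1.0. Aurka, the kinase of centrosomes and spindle poles (ENSMUSG00000027496, chromosome 2, 172356190 to 172370535, mm10), was at 232, 280 and 251 CPM in untreated replicates 1 to 3 and at 74.8, 91.6 and 92.7 CPM in BPA replicates 1 to 3. Every BPA library was thus below 100 CPM and every untreated one above 200 CPM, a change of -1.56 (SE 0.16, edgeR adjusted p = 1.5e-04). Plk1, the Polo kinase of mitotic entry and exit, had 149, 170 and 172 CPM without and 59.4, 99.9 and 59.7 CPM with BPA (-1.16, SE 0.22, edgeR adjusted p = 0.00603). BPA replicate 2 was the highest of its group for Plk1, and without it the change was -1.45.

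Among the cyclins, the B-type Ccnb2 was at 83.4, 88.1 and 77.3 CPM in untreated and 32.5, 36.1 and 33.9 CPM in BPA libraries, a tight separation (-1.28, SE 0.19, edgeR adjusted p = 0.00154). Ccnb1, the main partner of CDK1 at mitotic entry, was at 254, 284 and 298 CPM without and 160, 125 and 135 CPM with BPA (-0.99, SE 0.16, edgeR adjusted p = 0.00215). Its value is uncertain where reads are shared, because its transcript matched 4 other annotated genes at an identity of at least 95% over at least 200 bases, and these were not used here. The intervals of the 2 B-type cyclins overlap, -1.69 to -0.86 for Ccnb2 and -1.34 to -0.65 for Ccnb1. Ccna2, the cyclin of S phase and G2, had 185, 200 and 200 CPM in untreated and 97.0, 106 and 89.5 CPM in BPA libraries (-1.0, SE 0.15, edgeR adjusted p = 0.00176). Of its exon length 12.5% overlaps Exosc9.

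Cdk1 itself (chromosome 10, 69336635 to 69352938) was at 98.0, 110 and 73.2 CPM without and 60.7, 38.8 and 56.2 CPM with BPA. The groups did not overlap, but the gap between the lowest untreated and the highest BPA library was small (-0.85, SE 0.23, edgeR adjusted p = 0.0338). Omitting any library but BPA replicate 2 ended the call of Cdk1 (highest edgeR adjusted p = 0.160), as did scaling by library size (0.0792). Cdc25b, a phosphatase that activates CDK1, was at 145, 179 and 158 CPM in untreated and 60.6, 83.0 and 59.3 CPM in BPA libraries (-1.25, SE 0.19, edgeR adjusted p = 0.00167). Its relative Cdc25c was rare, with 42 to 157 counts in each of the 6 libraries, and its interval of -1.33 to 1.21 holds changes of either sign. Part of the exon length of Cdc25c (12.7%) overlaps Gm3550, and the library kit does not mark strand.

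Foxm1, a transcription factor that drives many of these genes, was at 91.4, 76.0 and 70.2 CPM without and 39.5, 79.4 and 48.2 CPM with BPA. The groups overlapped through BPA replicate 2 alone, which lay above 2 untreated libraries (-0.51, 95% interval -1.07 to 0.05, edgeR adjusted p = 0.242). Without that library Foxm1 passed as lower (-0.85, edgeR adjusted p = 0.00730).

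**Figure D2:**
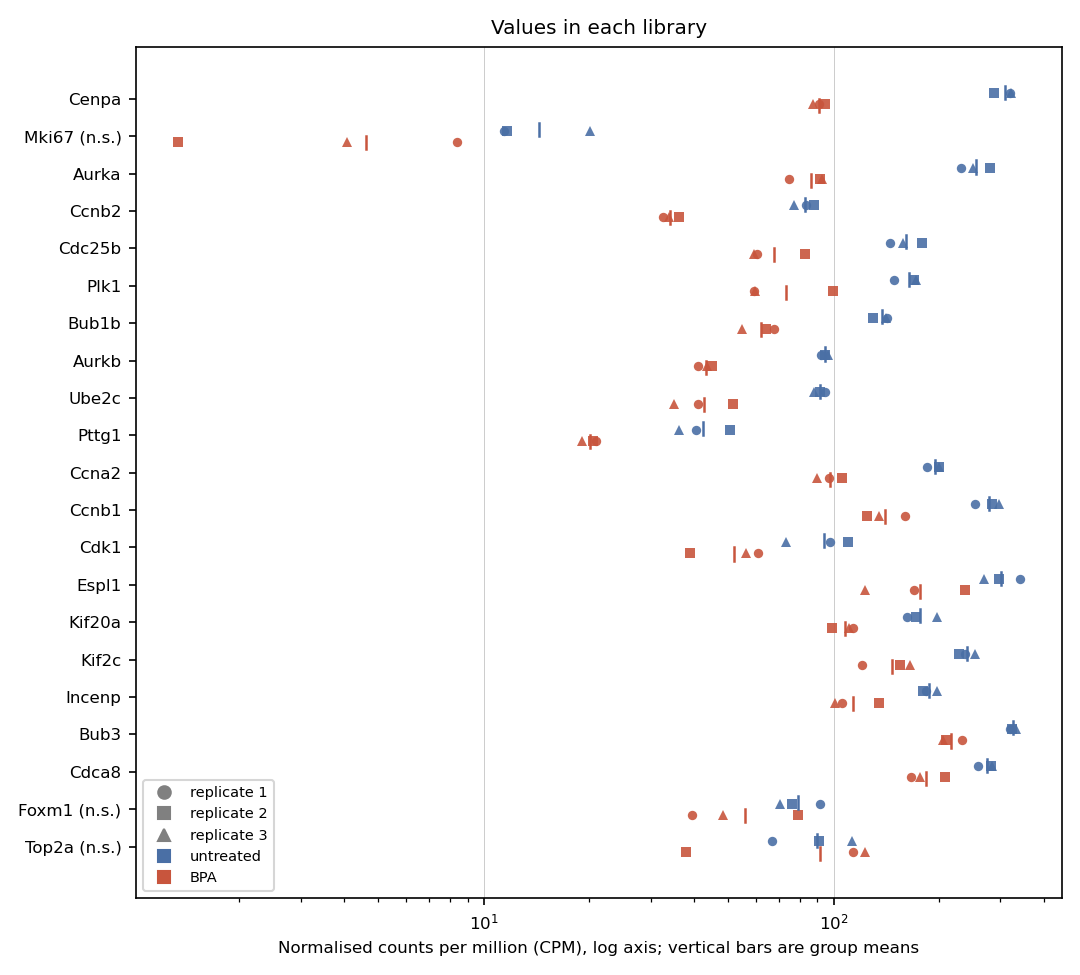
Normalised CPM on a log axis in each of the 6 libraries, for the 18 members that fell and for Mki67, Foxm1 and Top2a, marked n.s. because they did not pass the threshold. Symbols give the replicate number and vertical bars the group means; the groups separate for every gene but Foxm1 and Top2a, where BPA replicate 2 stands apart.

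The chromosomal passenger complex, which corrects kinetochore attachments and later directs cytokinesis, had 3 of 4 members lower. Its kinase gene Aurkb was at 92.1, 94.8 and 96.7 CPM in untreated and 40.9, 45 and 43.6 CPM in BPA libraries, so replicates of each group lay close together. The log2 fold change of Aurkb was -1.13 (SE 0.18, edgeR adjusted p = 0.00220), and its interval of -1.52 to -0.74 overlaps that of Aurka, -1.92 to -1.20. The scaffold Incenp was at 184, 180 and 198 CPM without and 106, 135 and 101 CPM with BPA (-0.71, SE 0.17, edgeR adjusted p = 0.0187). Cdca8, which encodes borealin, was at 259, 281 and 284 CPM without and 167, 208 and 177 CPM with BPA (-0.58, SE 0.15, edgeR adjusted p = 0.0295). For both, omitting any library but BPA replicate 2 ended the call (highest edgeR adjusted p = 0.0928 for Incenp and 0.137 for Cdca8). Birc5, which encodes survivin, did not pass (-0.84, SE 0.32, edgeR adjusted p = 0.124), although its BPA libraries, at 9.56 to 17.3 CPM, were all below the untreated ones, at 19.8 to 25.5 CPM. It passed once libraries were corrected for the GC content and length of genes (-1.07, edgeR adjusted p = 0.0173).

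Of the spindle checkpoint 2 of 5 members fell. Bub1b, which encodes the checkpoint protein BUBR1, was at 142, 130 and 141 CPM in untreated and 67.5, 64.3 and 54.8 CPM in BPA libraries (-1.15, SE 0.17, edgeR adjusted p = 0.00152). Bub3, its binding partner at kinetochores, was the most abundant checkpoint gene by counts, at 320, 324 and 333 CPM without and 233, 209 and 206 CPM with BPA. That smaller fall (-0.59, SE 0.14, edgeR adjusted p = 0.0183) was not called when any library but BPA replicate 2 was omitted (highest edgeR adjusted p = 0.0921). The kinase gene Bub1 was at 20.3, 12.6 and 24.4 CPM without and 22.1, 4.01 and 24.1 CPM with BPA, so 2 BPA libraries lay within the untreated range and the third far below it. Mad2l1, which encodes the checkpoint inhibitor of CDC20, was at 52.7, 58.2 and 39.6 CPM without and 67.7, 27.0 and 51.7 CPM with BPA, with replicate 2 again the lowest library; its transcript is matched by a near copy, Gm42430, not used here. For Ttk, the MPS1 kinase, the libraries held 70 to 246 counts each. The intervals of Bub1 (-1.34 to 0.95), Mad2l1 (-0.71 to 0.63) and Ttk (-0.64 to 1.32) include falls as large as that of Bub3.

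At the centromere 1 of 5 members fell. Cenpa, the histone H3 variant that marks centromeres (ENSMUSG00000029177, chromosome 5, 30666777 to 30674830), had 320, 287 and 322 CPM in untreated and 90.9, 94.5 and 87.3 CPM in BPA libraries. This was the largest called change of the 40 members, 3.41-fold lower (log2 fold change -1.77, SE 0.15, edgeR adjusted p = 2.6e-05), and it stayed called whichever library was omitted (highest edgeR adjusted p = 0.00117). The 95% interval of Cenpa was -2.09 to -1.45. The other 4 genes of this role did not pass. Cenpf, a large kinetochore protein, was at 16.1, 12.4 and 29.0 CPM without and 11.1, 1.59 and 6.44 CPM with BPA (-1.59, SE 0.58, edgeR adjusted p = 0.107), and passed after the GC and length correction (-2.28, edgeR adjusted p = 0.00645). The kinesin Cenpe and the NDC80 complex genes Ndc80 and Nuf2 were rare, at 0.842 to 15.3 CPM over all libraries, with BPA replicate 2 lowest in each.

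Spindle motors and microtubule proteins had 1 of 5 members lower. Kif2c, a kinesin that depolymerises microtubules at centromeres, was at 238, 228 and 254 CPM in untreated and 121, 155 and 165 CPM in BPA libraries (-0.71, SE 0.16, edgeR adjusted p = 0.0176). Omitting any 1 untreated library or BPA replicate 1 ended this call (highest edgeR adjusted p = 0.0927). Tpx2, the activator of Aurora A on the spindle, was at 52.7, 44.6 and 47.9 CPM without and 34.7, 20.1 and 32.9 CPM with BPA. These groups did not overlap, yet the test missed the threshold (-0.73, SE 0.26, edgeR adjusted p = 0.0966), and the GC and length correction brought it past (edgeR adjusted p = 0.00932). The bipolar kinesin gene Kif11 was at 24.2 and 14.4 CPM in BPA replicates 1 and 3 but at 2.82 CPM in replicate 2, against 9.18 to 16.1 CPM in untreated libraries. Hmmr, which encodes a spindle pole protein, was likewise low in replicate 2, with 14.5, 2.48 and 13.1 CPM under BPA and 6.67 to 17.1 CPM without. Nusap1, which encodes a microtubule-bundling protein, was at 1.04 to 5.46 CPM over all libraries, and per length it was the lowest member in the untreated group.

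Of the 4 genes of anaphase and protein degradation 3 fell. Ube2c, the ubiquitin-conjugating enzyme of the anaphase promoting complex, was at 94.6, 91.4 and 87.8 CPM in untreated and 40.9, 51.7 and 35 CPM in BPA libraries (-1.10, SE 0.20, edgeR adjusted p = 0.00575). Pttg1, which encodes securin, was at 40.4, 50.6 and 36.1 CPM without and 21.0, 20.5 and 19.1 CPM with BPA (-1.07, SE 0.25, edgeR adjusted p = 0.0185). Espl1, the gene of separase, the protease that securin inhibits, was at 341, 298 and 269 CPM without and 170, 238 and 123 CPM with BPA (-0.77, SE 0.22, edgeR adjusted p = 0.0392). The call of Pttg1 needed untreated replicates 1 and 2 and BPA replicates 1 and 3 (highest edgeR adjusted p when 1 was omitted = 0.100), and that of Espl1 every library but BPA replicate 2 (0.178). Cdc20, the activator of the complex and by far the most abundant member, was at 898, 876 and 796 CPM without and 558, 727 and 584 CPM with BPA. Its groups did not overlap, and it missed the threshold narrowly (-0.46, SE 0.14, edgeR adjusted p = 0.0573). Cdc20 passed in DESeq2, limma-voom, each of the 3 other scalings and the fit with a replicate block, and without BPA replicate 2 (-0.58, edgeR adjusted p = 8.6e-04). It was at -0.12 after the GC and length correction (edgeR adjusted p = 0.372). Of the exon length of Ube2c, 22.8% overlaps Tnnc2 on the opposite strand.

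Genes of the spindle midzone and cytokinesis had 1 of 5 members lower and a median of 0.08. Kif20a, a kinesin of the spindle midzone, was at 162, 172 and 198 CPM in untreated and 114, 98.7 and 111 CPM in BPA libraries (-0.72, SE 0.16, edgeR adjusted p = 0.0152). Omitting any 1 untreated library or BPA replicate 1 ended the call of Kif20a (highest edgeR adjusted p = 0.0797). Its exon length overlaps by 29.3% with Cdc23 on the opposite strand, a gene at 57.3 ± 8.45 CPM without and 52.7 ± 5.47 CPM with BPA (SD, n = 3), so shared reads cannot be told apart. Kif23, the other midzone kinesin, was at 16.5, 11.1 and 14.0 CPM without and 23.2, 10.8 and 32.9 CPM with BPA. BPA replicates 1 and 3 were above every untreated library and replicate 2 below them (0.68, SE 0.39, edgeR adjusted p = 0.307). Without BPA replicate 2 it passed as higher (1.02, edgeR adjusted p = 0.0354), the only member to do so in any fit, where 8.81% of 13708 tested genes were higher. After the GC and length correction it was at 0.21 (edgeR adjusted p = 0.734). The RhoA activator Ect2, the ring protein Anln and the midzone bundler Prc1 had 95% intervals of -0.50 to 1.37, -0.60 to 0.76 and -0.81 to 0.75, which hold changes of either sign.

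The remaining members are the centriole kinase gene Plk4, the topoisomerase gene Top2a and the proliferation marker gene Mki67. None of these 3 passed the test. Top2a was at 66.8, 90.7 and 113 CPM in untreated and 114, 38.0 and 123 CPM in BPA libraries. BPA replicates 1 and 3 were thus at or above the highest untreated library while replicate 2 was below all others (0.02, 95% interval -0.75 to 0.79, edgeR adjusted p = 0.980). Plk4 was at 10.1 to 26.7 CPM in untreated and 24.8, 7.24 and 26.0 CPM in BPA libraries, and its interval was -0.81 to 1.35. Mki67, which encodes the Ki-67 antigen, was at 11.4, 11.7 and 20.2 CPM without and 8.38, 1.34 and 4.08 CPM with BPA. All BPA libraries of Mki67 were below the untreated ones, but they spread widely (-1.66, SE 0.58, edgeR adjusted p = 0.0924). Mki67 passed without BPA replicate 1 (edgeR adjusted p = 0.0498), in limma-voom and DESeq2, without a filter on low counts, under a replicate block and with the GC and length correction (-2.13, edgeR adjusted p = 0.0183). A near copy of its transcript, Gm44521, was not used here.

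Levels between genes were compared per kilobase of merged exon length. These lengths differ from the authors' for every member. Large differences include Bub3 (7006 against 2055 bases), Aurka (2531 against 3879 bases), Pttg1 (2000 against 4741 bases) and Ndc80 (6493 against 2201 bases). The order of members after Cdc20 therefore depends on the lengths used and would differ with those of the authors. Cdc20 led in both groups, at 459 ± 28.6 CPM per kilobase in untreated and 334 ± 48.9 in BPA libraries (SD, n = 3). Next in untreated libraries came Aurka (101 ± 9.59 CPM per kilobase), then Plk1 (74.4 ± 5.68) and Ccnb1 (66.1 ± 5.37), which do not differ beyond their spread. Under BPA the levels per kilobase of Cdca8 (35.6 ± 4.13), Aurka (34.1 ± 3.97), Kif2c (33.7 ± 5.25), Ccnb1 (33.2 ± 4.28) and Plk1 (33.2 ± 10.6) lay within their spread of each other. Cenpa moved from rank 8 to rank 15 among the 40 members and Ccnb2 from rank 6 to rank 11. At the low end, Nusap1, Nuf2 and Cenpe were at 0.688, 0.872 and 0.939 CPM per kilobase in untreated libraries.

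The 18 members that fell were for the most part more abundant and more evenly measured than the 22 others, which include the most abundant member, Cdc20. Their untreated level per kilobase had a median of 44.9 CPM against 2.00 CPM, and the SE of their log2 fold change a median of 0.17 against 0.47. They also differed in base composition, with a median GC content of 49.8% against 43.2% in the longest transcript, where all tested genes have 50.5%. BPA replicate 2 was the lowest of the 6 libraries for 19 of the 22 members that did not pass and for 3 of the 18 that fell. Its log2 level minus the mean of BPA replicates 1 and 3 had a median of -1.52 in the former and 0.12 in the latter, against 0.10 for all tested genes. Within the BPA libraries alone, replicate 2 was the lowest for 19 of the 22 and for 3 of the 18. Among all tested genes it was the lowest BPA library for 35.1%.

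**Figure D3:**
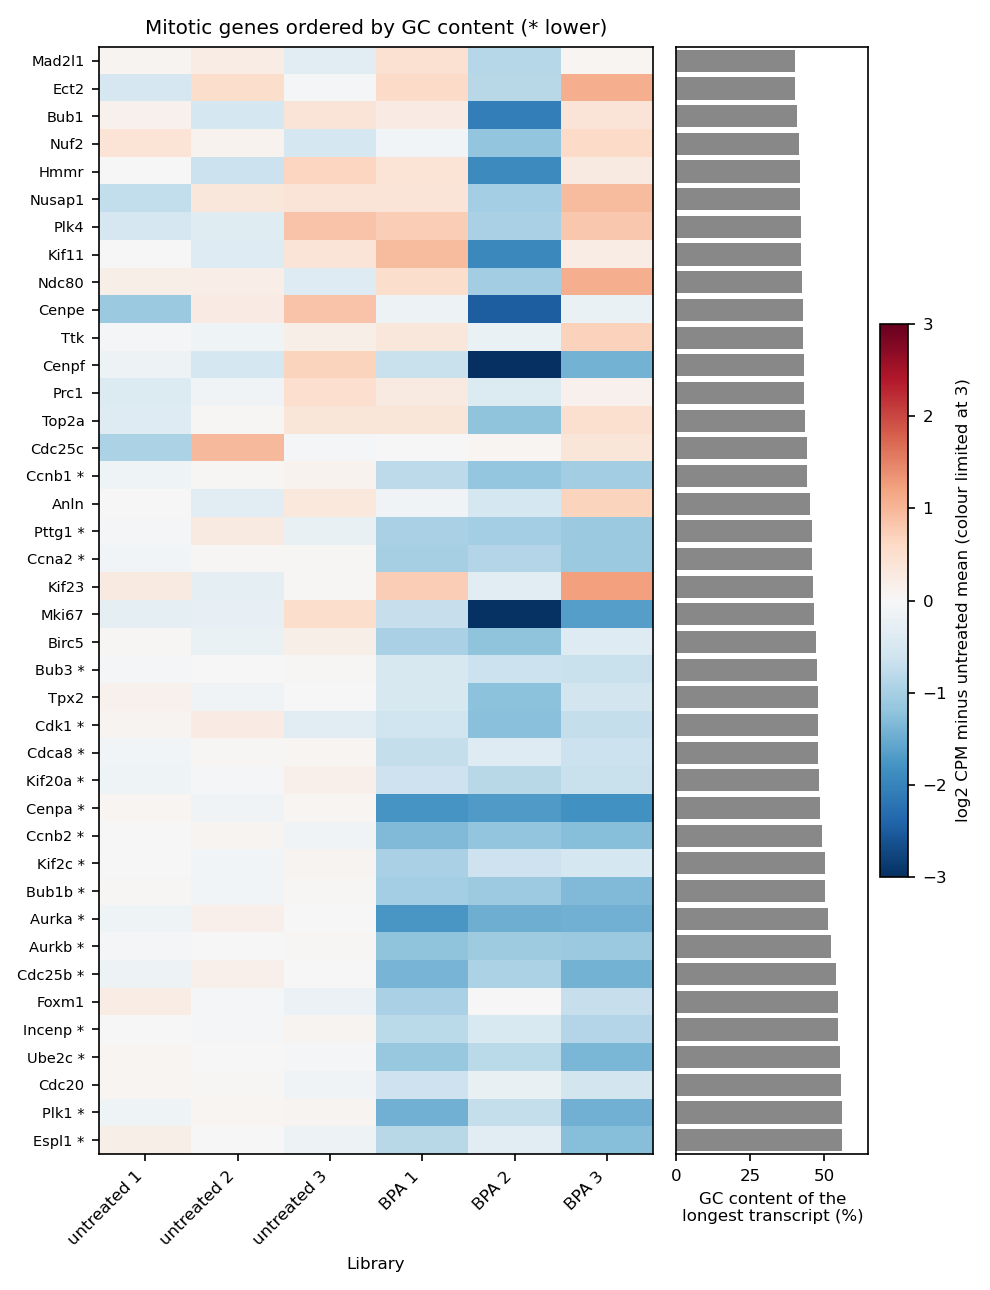
Log2 CPM of each member minus its untreated mean, by library, with members ordered from low to high GC content of the longest transcript (grey bars, in percent) and those that fell marked with an asterisk. In most of the upper rows BPA replicate 2 is the lowest library, while in some of the lowest rows, such as Plk1, Espl1 and Foxm1, it is the highest of the BPA libraries.

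This deviation followed GC content. Over the 40 members Spearman's rho between GC content and the deviation of BPA replicate 2 was 0.87, and over 13273 tested genes it was 0.65; both describe these libraries, whose genes share depth and preparation. Among the 20 members of lower GC content 3 fell (Ccnb1, Ccna2 and Pttg1) and the median log2 fold change was -0.04. Among the 20 of higher GC content 15 fell, with a median of -0.85. Fold changes of all tested genes leaned the same way, with a median of 0.38 and 1.84% lower in the lowest quartile of GC content, and -0.13 and 10.6% lower in the highest quartile. Without BPA replicate 2 the medians of the lower and higher GC members were 0.27 and -0.95, and 3 and 17 members fell. With the GC and length correction they were -0.53 and -0.96, and 4 and 18 members fell, 22 in all (8.99% of tested genes). The 18 members called without the correction were also called with it, joined by Birc5, Cenpf, Tpx2 and Mki67. The part of base composition in the differences between groups was not tested beyond this correction.

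**Figure D4:**
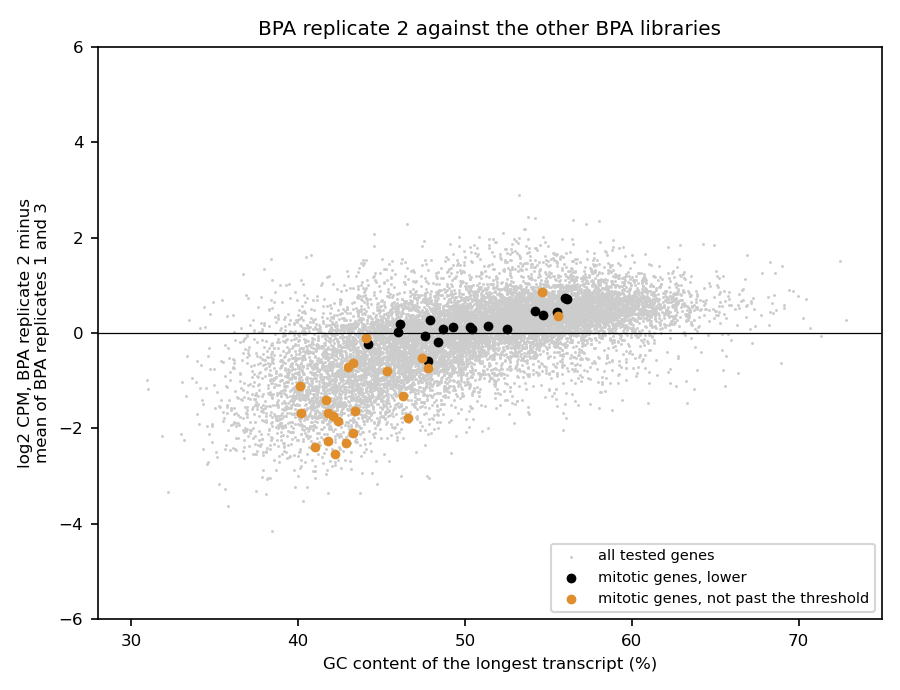
Log2 CPM of BPA replicate 2 minus the mean of BPA replicates 1 and 3 against GC content of the longest transcript in percent, for all tested genes (grey) and the 40 members (black where lower, orange where not past the threshold). Members under about 45% GC lie mostly well below 0, and those above 50% lie at or above it.

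Of 112 further genes of the kinetochore, spindle, anaphase promoting complex, condensin and cohesin, 10 fell (8.93%, against 6.28% of all tested genes) and 4 rose (3.57%, against 4.37%), and their median was 0.09. With the GC and length correction 23 were lower (20.5%, against 8.99% of all tested genes). Leaving out BPA replicate 2 gave 16 lower (14.3%, against 11.7%) and 16 higher (14.3%, against 8.81%). Omitting untreated replicate 1 gave 3 lower (2.68%, against 2.06%), untreated replicate 2 gave 4 (3.57%, against 2.31%), BPA replicate 1 gave 5 (4.46%, against 2.51%) and BPA replicate 3 gave 6 (5.36%, against 3.08%). Kif22, a chromosome-arm kinesin, fell from 324 ± 26.2 to 175 ± 11.5 CPM (SD, n = 3; -0.88, edgeR adjusted p = 0.00263), and Ncaph2 of condensin II from 788 ± 59.2 to 408 ± 70.0 CPM (-0.95, edgeR adjusted p = 0.00224). These 2 stayed called whichever library was omitted (highest edgeR adjusted p = 0.0232 and 0.0273). Also lower were Cdca3 (-1.12), which promotes degradation of WEE1, the kinesin Kif18b (-0.92), the kinetochore gene Ska1 (-1.65), the condensin I gene Ncapd2 (-0.55) and the cohesin protector Cdca5 (-0.81), which encodes sororin. In the anaphase promoting complex and its enzymes Anapc11 (-0.84), Ube2s (-0.73) and Cdc26 (-1.10) fell. The calls of these 8 genes were less stable. Anapc11 was not called without untreated replicate 1 (edgeR adjusted p = 0.0530), Ube2s without untreated replicate 1 or 2 (at most 0.0604), Ska1 without untreated replicate 2 or 3 (at most 0.0719) and Cdca3 without replicate 1 of either group (at most 0.0886). Kif18b and Cdca5 were not called when 1 of untreated replicates 1 and 2 and BPA replicates 1 and 3 was omitted (edgeR adjusted p at most 0.0947 and 0.117), and Cdc26 and Ncapd2 when any library but BPA replicate 2 was (at most 0.125 and 0.174). Higher were the kinetochore gene Dsn1 (0.96), the kinesin Kif2a (1.25), the anaphase promoting complex gene Cdc16 (0.65) and the cohesin core gene Smc1a (1.86). Of these, Dsn1 was not called without untreated replicates 1 or 2 or BPA replicates 1 or 3 (edgeR adjusted p at most 0.164), and the other 3 when any library but BPA replicate 2 was omitted (at most 0.136, 0.171 and 0.144).

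**Figure D5:**
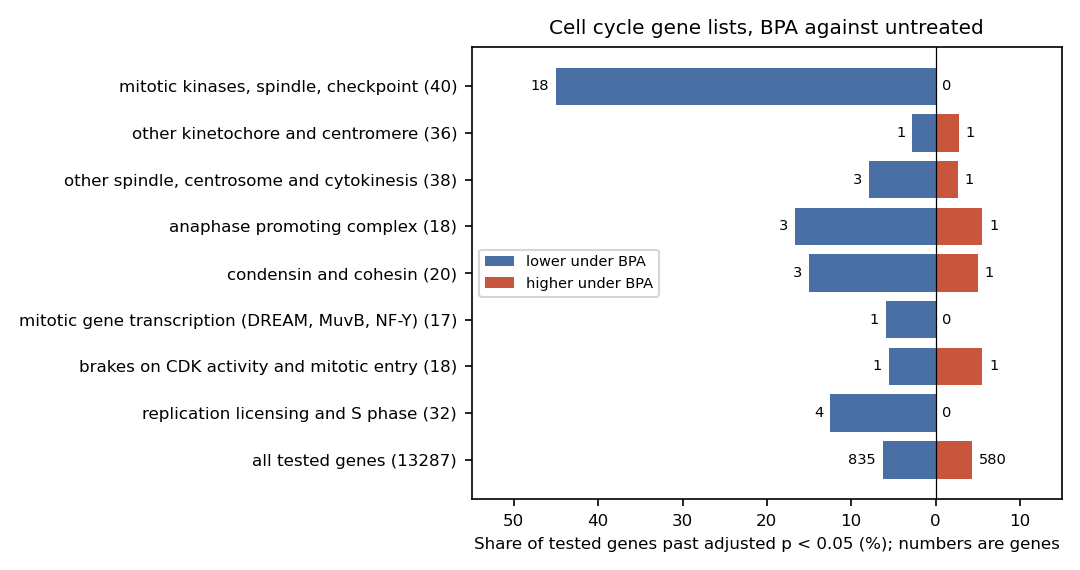
Share of tested genes past an edgeR adjusted p of 0.05, lower to the left and higher to the right, for the 40 members, for 7 other cell cycle lists and for all tested genes, with the number of genes beside each bar. The members have the longest bar, 18 lower of 40, and no other list reaches 20%.

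Of 35 tested regulators of mitotic transcription and mitotic entry 2 fell (5.71%, against 6.28% of all tested genes) and 1 rose (2.86%, against 4.37%). Mybl2, which encodes the B-MYB partner of MuvB, was at 190, 178 and 155 CPM in untreated and 95.5, 138 and 88.4 CPM in BPA libraries (-0.70, SE 0.19, edgeR adjusted p = 0.0379), and omitting any library but BPA replicate 2 ended the call (highest edgeR adjusted p = 0.171). The repressor Rbl1, at 1.26 to 5.73 CPM without and 5.85 to 8.56 CPM with BPA, did not pass (1.04, edgeR adjusted p = 0.318). Cdkn1b, which encodes the CDK inhibitor p27, rose from 9.64, 8.95 and 8.20 CPM to 33.8, 25.6 and 38.5 CPM (1.87, SE 0.29, edgeR adjusted p = 0.00212). Sfn, which encodes 14-3-3 sigma, a G2 checkpoint protein, fell from 51.4, 64.4 and 57.3 CPM to 10.3, 17.2 and 11.0 CPM (-2.17, SE 0.28, edgeR adjusted p = 5.3e-04). Both stayed called whichever library was omitted (highest edgeR adjusted p = 0.0199 and 0.00659). The number of regulators higher was 3 without BPA replicate 2 (8.33%, against 8.81% of all tested genes), 3 with library size scaling (8.57%, against 6.25%) and 3 with the GC and length correction (8.57%, against 6.65%). Cdkn1a, which encodes p21, was at 251, 276 and 221 CPM without and 258, 338 and 239 CPM with BPA, groups that overlap (0.16, 95% interval -0.21 to 0.52). Wee1, the kinase that holds CDK1 inactive, was at 36.6 ± 4.32 and 29.3 ± 5.85 CPM (SD, n = 3; interval -0.87 to 0.22).

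Replication and S phase genes had 4 of 32 tested lower (12.5%, against 6.28% of all tested genes) and 0 higher, with a median of -0.33. Tk1, the S phase thymidine kinase, fell from 195 ± 12.2 to 79.1 ± 4.95 CPM (SD, n = 3; -1.30, edgeR adjusted p = 3.9e-04), Cdc45 of the replicative helicase by 0.87 and Uhrf1 by 0.61 on the log2 scale. The call of Uhrf1, a maintenance factor of DNA methylation, needed untreated replicates 1 and 2 and BPA replicates 1 and 3 (highest edgeR adjusted p when 1 was omitted = 0.0998). Of the 32 genes 12 (37.5%) were lower with the GC and length correction, against 8.99% of all tested genes, and 12 without BPA replicate 2, against 11.7%. Without untreated replicate 1 or 2 the number was 2 (6.25%, against 2.06% and 2.31%). Whether this list and the 40 members differ was not tested.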

How the data were processed

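RNA was sequenced from 6 libraries, 3 per group, prepared with a kit that does not mark strand, per the labels. The deposited raw gene counts and FPKM were made by the authors with TopHat2 2.0.9 and HTSeq on mm10, per the submitters' processing notes; neither an annotation release nor counting settings were named there. FPKM as deposited matched counts over length and library total (largest relative difference 9.2e-04) and was not tested; 9.4% of the authors' lengths exceed the gene's locus, so merged exon lengths of GENCODE vM21 were used.

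Columns were matched to samples by the code in the titles. Counts were filtered (filterByExpr), scaled by trimmed mean of M-values and tested on the whole table with edgeR 4.0.16 (quasi-likelihood, no block, Benjamini-Hochberg, threshold 0.05; R 4.3.3). The standard error is the log2 fold change over the square root of F; CPM values use the scaled library sizes. The common biological coefficient of variation, a single value over all tested genes, was 0.44, which limits what can be detected. Despite its name this spread may be technical. The SE of the log2 fold change was 0.14 to 0.25 for the members that fell and 0.14 to 0.80 for the others. The main fit and the alternatives on all 6 libraries were run on simulated counts, which held no dependence on GC content. The fits that left out a library were not tested in this way. Copies were searched with blastn 2.17.0, and GC content came from the longest vM21 transcript (99.9% of tested genes). Promoter sequences are RefSeq's (GRCm38.p6). Figures used matplotlib 3.10.9.

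All members were named; those that fell and Cdk1, Ccnb1, Plk1, Mki67, Top2a, Foxm1 and Bub3 were given per library. Other lists gave up to 3 genes per direction, or the 2 most abundant, plus Cdkn1a, Wee1, Mybl2 and Rbl1. The members and lists were chosen with earlier results of these data known. Alternatives were DESeq2 1.42.0, limma-voom (limma 3.58.1), other scalings and filters, an FDR of 0.01, a replicate block, a lowess correction for GC content and length (span 0.3), and leaving out each library.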

Additional observations from a re-analysis of the deposited data

How the results depend on the processing

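The 40 members gave 18 to 22 lower and 0 higher under the other scalings, filters and tools at a threshold of 0.05. Of all tested genes 5.29% to 9.24% were lower there. The medians of the members were -0.84 to -0.60, and 10 members were lower at 0.01 (2.42% of all tested genes). Leaving out 1 library gave 10 to 20 lower, 0 to 1 higher and medians of -0.73 to -0.57; 0 members changed direction among calls. The median over all tested genes was 0.10, and 0.21 with scaling by library size. Over all tested genes 580 were higher and 835 lower; 938 were higher with DESeq2, 927 without a low-count filter, 883 with the GC and length correction and 885 with that correction and the block together, and at 0.01 the counts were 155 higher and 322 lower. Leaving out 1 library gave 162 to 1207 higher and 282 to 1600 lower, and the highest counts were those without BPA replicate 2. The cause was not tested.

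Of the 112 other mitotic genes 8 were higher without a filter and 0 at 0.01; 23 were lower with the GC and length correction, 20 with the block added and 4 at 0.01, and leaving out 1 library gave 0 to 16 higher and 3 to 16 lower. Of the regulators 1 was higher and 2 were lower in the main fit, and 3 were higher with library size scaling (8.57%, against 6.25% of all tested genes). DESeq2 gave 2 higher (5.71%, against 7.06%), as did no filter (5.56%, against 4.92%). The GC and length correction gave 3 higher without the block (8.57%, against 6.65%) and with it (8.57%, against 6.66%). A threshold of 0.01 left 1 lower (2.86%, against 2.42%), and leaving out 1 library gave 1 to 3 of each. Of the S phase genes 1 was higher with library size scaling, no filter, the block, the GC and length correction or both, 10 were lower with DESeq2, 12 with that correction with or without the block and 2 at 0.01; leaving out 1 library gave 0 to 1 higher and 2 to 12 lower. The cause was not tested.

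The labels name no pairing by replicate number. Deviations of same-numbered samples correlated at -0.02, 0.06 and 0.07. Untreated replicates 2 and 3 correlated best with their own number and untreated replicate 1 did not. Values this weak cannot decide whether samples were paired. With the replicate number as a block, 21 members were lower (52.5%) and 0 higher. Of all tested genes 721 (5.43%) were higher and 985 (7.41%) lower with it. The SE was largest for Nusap1 (0.80), a rare member whose log2 level in BPA replicate 2 minus the mean of the other BPA libraries was -1.67; how much of it depth accounts for was not tested.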
